A study of Homo sapiens with 9 samples.

Results

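The net change from a naive starting culture to the same cells after N2B27 with EPZ-6438 was measured across all genes in 6 of the 9 RNA-seq libraries of the series. All libraries came from H1, an established line of human embryonic stem cells with the wild-type genotype. The starting group, 3 libraries, was kept in PXGL, in which MEK, tankyrase and protein kinase C are inhibited and the cytokine LIF is supplied. In the other group, also 3 libraries, PXGL cells had been moved to N2B27, a serum-free basal medium with none of these additions, together with 5 µM EPZ-6438 for 3 days. EPZ-6438 is a small molecule that blocks the catalytic site of EZH2. The 3 libraries in N2B27 alone are used to place the levels of the genes described, in the tests against N2B27 and of N2B27 against PXGL, and in the filter and scaling, and no source used here gives the length of that culture. The comparison with PXGL therefore joins 2 changes, the loss of the PXGL additions and the gain of the inhibitor, whose shares in it cannot be told apart from these libraries. The series text names triplicate cultures and duplicate RNA-seq, and 3 libraries a group were analysed. Whether replicates came from separate cultures is not stated. The p-values therefore reflect only how these libraries scatter, and that scatter may be technical.

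Naive human pluripotent cells resemble the preimplantation epiblast, and blocking MEK keeps the FGF and ERK pathway from moving them towards the primed state of the later epiblast. EZH2 is the methyltransferase of Polycomb repressive complex 2 (PRC2), which places H3K27me3 on the promoters of developmental regulators, the HOX genes among them, and helps to keep them silent. Hypoblast, the tissue called primitive endoderm in the mouse, is the other derivative of the inner cell mass, and the series was made to ask whether PRC2 holds that fate back.

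Total counts were 17499688 to 18358530 per library in PXGL and 14719626 to 16479602 with EPZ-6438. Among the PXGL libraries, replicate 1 stood apart. Its counts differed from those of replicates 2 and 3 with a chi-square per degree of freedom of 19.6 and 26.3 over genes, and replicates 2 and 3 differed from each other with 3.41. The median log2 ratio of replicate 1 to the other PXGL libraries fell from 0.23 in the 20% of genes with the shortest transcripts to -0.25 in the 20% with the longest. Its share of counts on ribosomal protein genes was 7.22%, with 5.92% and 5.51% in the others. Results are given with all 6 libraries, and list counts without PXGL replicate 1 follow for most lists. Where leaving out 1 library ended a call or moved a gene's fold by over 1.5 times, the value without it is given beside the gene. Levels are CPM, counts per 1e6 with library sizes scaled by the TMM method. Where 3 levels stand together they are replicates 1 to 3, and values after ± are SDs with n = 3. Fold changes are from edgeR's quasi-likelihood fit on the 6 libraries, and a gene was called when the Benjamini-Hochberg adjusted p over 15179 genes was under 0.05.

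Of the 15179 genes tested, 8053 (53.1%) differed between N2B27 with EPZ-6438 and PXGL. Of these, 4032 genes (26.6% of those tested) were higher with EPZ-6438 and 4021 (26.5%) were lower, so calls were evenly split. The sizes were not. Among genes called with more than a 2-fold difference, 1540 (10.1%) were higher and 1161 (7.65%) were lower. Beyond 4-fold there were 753 higher and 235 lower genes, and beyond 16-fold 215 higher and 21 lower. The median log2 fold change over all genes was -0.0015, and the median size of a change in either direction was 1.32-fold. The 1540 genes that rose by over 2-fold took 1.65% of all CPM in PXGL, 4.27% in N2B27 and 5.09% with EPZ-6438. The 1161 genes that fell by over 2-fold took 3.58% in PXGL, 1.37% in N2B27 and 1.37% with EPZ-6438. Without PXGL replicate 1 the filter was rerun and 15522 genes were tested, so some lists gained tested members. The calls were then 4822 higher and 4639 lower, and 1613 and 1255 beyond 2-fold. List counts without that replicate stand beside these totals, not beside the shares with all 6 libraries. For scale, N2B27 alone differed from the same PXGL libraries in 8052 genes (53%), and the 2 comparisons share those libraries.

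**Figure D1:**
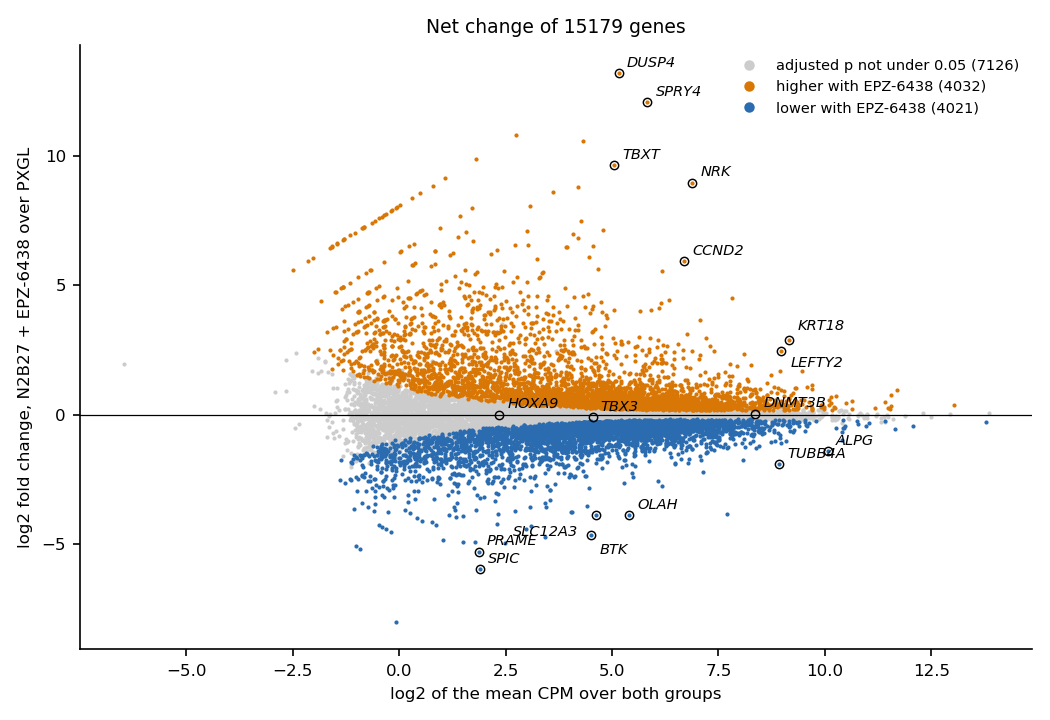
Each point is 1 of 15179 genes, with the log2 of its mean CPM over PXGL and N2B27 with EPZ-6438 on the horizontal axis and its log2 fold change, EPZ-6438 over PXGL, on the vertical axis. The 4032 genes called higher reach further from 0 than the 4021 called lower, and TBX3, HOXA9 and DNMT3B lie near 0 among the 7126 genes not called. The diagonal line of points at the upper left holds genes with no count in PXGL, whose fitted fold changes depend on the prior count.

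Among genes other than non-coding RNAs and pseudogenes that averaged 5 CPM or more in one of the groups, those with the largest decreases were low in both cultures without the PXGL additions. SLC12A3, the thiazide-sensitive sodium chloride cotransporter (chromosome 16, 56865207 to 56915850, hg38), was at 42.6, 50.9 and 46.4 CPM in PXGL, 0.557, 0.492 and 0.533 in N2B27 and 3.02, 4.26 and 2.03 with EPZ-6438. It was 14.9-fold lower than in PXGL (log2 -3.89, SE 0.19, adjusted p = 1.7e-08), with no overlap between the groups, and above its level in N2B27 alone (adjusted p = 5.56e-07). BTK, a tyrosine kinase best known from B cells, was at 38.8, 47.1 and 45.2 CPM in PXGL and 1.41, 1.03 and 2.85 with EPZ-6438, 25-fold lower (adjusted p = 2.2e-08), and at 1.19 ± 0.417 in N2B27. Its group ranges were far apart against PXGL and overlapped between the N2B27 cultures. SPIC, an ETS-family transcription factor, had 4.94, 7.83 and 9.16 CPM in PXGL and 0, 0 and 0.339 with EPZ-6438, the largest fitted decrease among these genes (log2 -5.98). The cancer-testis gene PRAME fell 39.4-fold, from 7.12 ± 0.906 to 0.175 ± 0.142 CPM. Integrin alpha M, encoded by ITGAM, fell 19.7-fold from 16.4 ± 2.17 CPM, and the inflammasome sensor NLRC4 fell 30.03-fold from 6.71 ± 0.692 CPM. CCR8, ATP6V1B1, ATP8B3, SEC14L5, PRAP1 and OLAH completed the 12 largest decreases, of which OLAH at 14.7-fold was the smallest. PRAP1 and OLAH, both used as markers of naive cells, went from 20.9 ± 2.42 to 0.763 ± 0.447 CPM and from 78.8 ± 10.01 to 5.38 ± 0.498 CPM. In N2B27 alone all 12 were below their lowest PXGL library. With few counts left under EPZ-6438, some of these sizes rest on 1 library: log2 -9.97 for SPIC without EPZ-6438 replicate 3 and -5.38 without replicate 2, -6.11 for PRAME without replicate 1, and -5.56 for NLRC4 and -5.35 for PRAP1 without replicate 2.

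Naive pluripotency genes fell on balance, and most stayed expressed. All 32 members of the list were tested: 21 fell, 7 rose and 4 did not pass, against 26.5% and 26.6% of all genes, with a median log2 fold change of -0.40 against -0.0015. Without PXGL replicate 1, 21 fell and 9 rose. KLF4, a reprogramming factor (chromosome 9, 107484852 to 107490482), was at 151, 144 and 142 CPM in PXGL and 53.5, 55.5 and 53.1 with EPZ-6438, 2.69-fold lower (adjusted p = 2.32e-08). KLF5, a related factor, fell 2.75-fold from 219 ± 8.58 to 79.7 ± 4.23 CPM, and the ligand FGF4 fell 4.7-fold from 232 ± 14.5 to 49.5 ± 4.19 CPM. Both N2B27 cultures lay below PXGL for KLF4, KLF5 and FGF4. KLF4 was higher with EPZ-6438 than in N2B27 (log2 0.50, adjusted p = 8.33e-08) and FGF4 was lower (log2 -1.03, adjusted p = 1.71e-22). The placental-type alkaline phosphatase gene ALPG went from 1558 ± 34.5 CPM in PXGL to 592 ± 14.1 with EPZ-6438 and 233 ± 4.85 in N2B27, and its split from the near-identical ALPP is uncertain. In the opposite direction KLF17, a transcription factor of naive cells, rose 1.28-fold from 58 ± 2.95 to 74.2 ± 2.55 CPM (adjusted p = 0.00223). SUSD2, the surface protein used to sort naive cells, was chosen after its values were seen and rose 1.44-fold, from 515 ± 26.6 to 744 ± 30.5 CPM.

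Among the core pluripotency factors the net change was uneven. SOX2, the partner of POU5F1 (chromosome 3, 181711924 to 181714436), was at 135, 132 and 131 CPM in PXGL and 69.6, 55.2 and 66 with EPZ-6438, 2.09-fold lower (log2 -1.06, SE 0.09, adjusted p = 1.78e-06). Its groups did not overlap, and it was 116 ± 4.9 CPM in N2B27. NANOG, a homeobox factor of the pluripotency network, was at 447, 401 and 416 CPM in PXGL and 348, 345 and 368 with EPZ-6438, 1.19-fold lower (adjusted p = 0.0115), a call lost without EPZ-6438 replicate 1 (adjusted p = 0.0565) or 2 (0.0668). POU5F1, which encodes OCT4, did not pass: 1504, 1259 and 1196 CPM in PXGL and 1184, 1161 and 1187 with EPZ-6438 (log2 -0.16, 95% interval -0.36 to 0.03, adjusted p = 0.148). It passed without PXGL replicate 3 (log2 -0.24, adjusted p = 0.0435). Of 14 core genes 5 rose (35.7%), 3 fell (21.4%) and 6 did not pass, beside 26.6% and 26.5% of all genes. The LINE-1-derived gene L1TD1 rose 3.21-fold to 752 ± 12.8 CPM and the RNA-binding gene LIN28A rose 1.66-fold to 1520.2 ± 15.5 CPM.

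**Figure D2:**
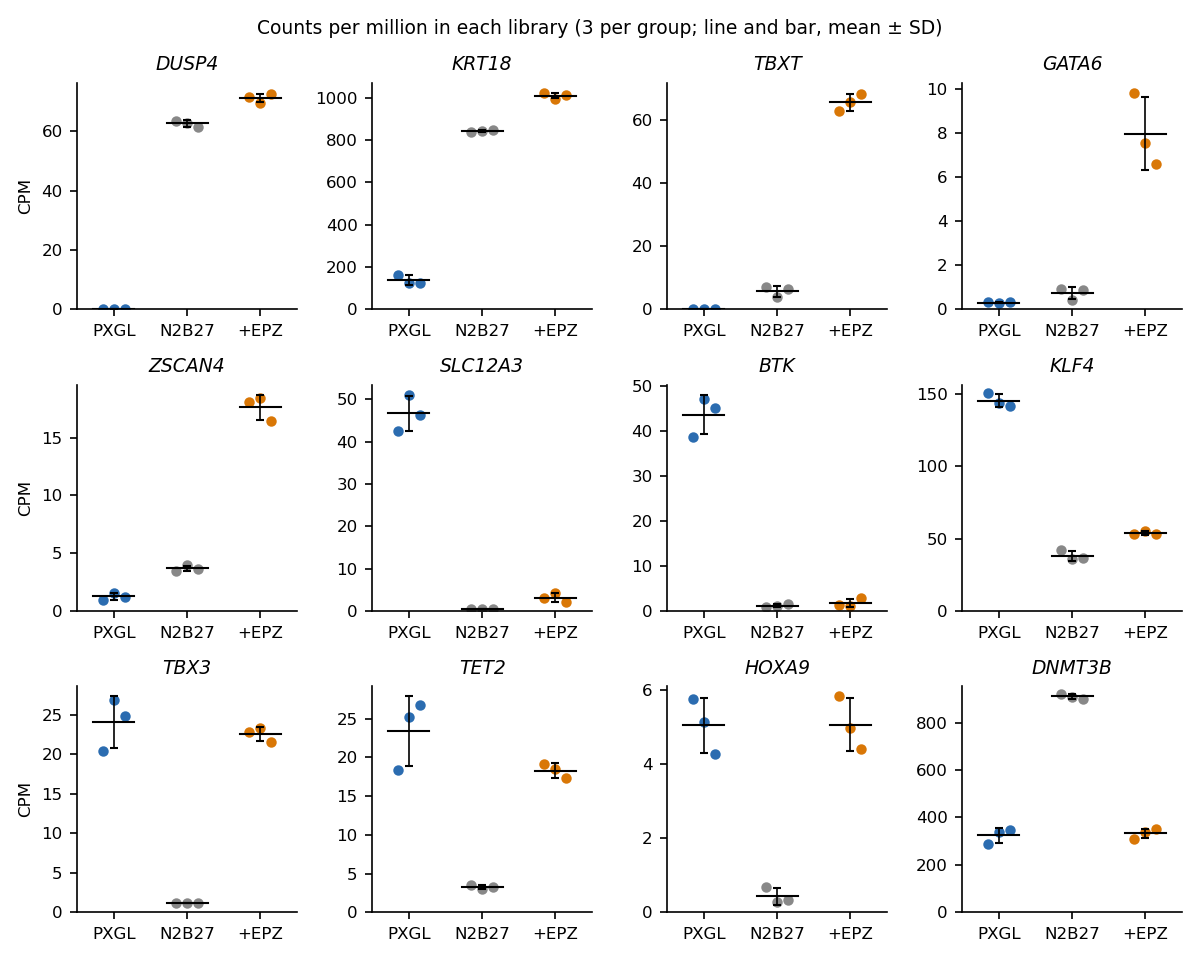
CPM of 12 genes in each of the 9 libraries, with 1 point per library and a line and bar for the mean and SD of each group of 3 (PXGL; N2B27; +EPZ, N2B27 with EPZ-6438). DUSP4 and KRT18 are high in both N2B27 cultures, TBXT, GATA6 and ZSCAN4 are highest with EPZ-6438, SLC12A3, BTK and KLF4 are below PXGL in both N2B27 cultures, and TBX3, HOXA9 and DNMT3B with EPZ-6438 sit near their PXGL levels and far from N2B27. TET2 with EPZ-6438 lies within reach of 1 PXGL point and below the others. ZSCAN4, DNMT3B and TET2 were chosen after their values were seen.

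Feedback inhibitors and targets of ERK signalling rose, and 2 of them had the largest fitted gains of all genes. DUSP4, a phosphatase that inactivates ERK, had 0 counts in all 3 PXGL libraries and 71.4, 69.6 and 72.5 CPM with EPZ-6438, at least 1292-fold higher if PXGL is set to 3 counts in all (adjusted p = 3.92e-10). N2B27 alone held 63.6, 62.9 and 61.5 CPM, so PXGL lay apart from both. SPRY4, an inhibitor of receptor tyrosine kinase signalling (chromosome 5, 142310427 to 142326455), had 1 count in PXGL and 111, 112 and 117 CPM with EPZ-6438 (ratio 6178, counting interval 1108 to 244051), and its fitted log2 change was 12.10, or 13.87 without PXGL replicate 1, which held that count. Of 27 list members 24 passed the low-count filter, with 21 higher, 2 lower and 1 not passing, against 26.6% and 26.5% of all genes, and a median log2 fold change of 3.10. A gene that is high in only 1 group can pass this filter through that group, so counts over tested members lean towards genes that differ; this holds for every list below. The ETS factor ETV5 rose 39.4-fold to 19.1 ± 0.678 CPM, and DUSP5 and PHLDA1 rose 23.8-fold and 20.002-fold to 38.6 ± 3.13 and 134 ± 2.92 CPM. The exceptions, named after their values were seen, were SPRY1, of the same inhibitor family as SPRY4, which fell 1.4-fold to 6.88 ± 0.872 CPM (a call lost without EPZ-6438 replicate 1 or 2, adjusted p = 0.0599 and 0.0759), the AP-1 gene JUNB, which fell 1.54-fold to 14.7 ± 2.86 CPM, and IL11, at 2.37 ± 0.533 and 2.93 ± 0.636 CPM (adjusted p = 0.37). Without PXGL replicate 1 the counts were again 21 and 2. The median for N2B27 alone against PXGL was 3.09, and the direct comparison of the N2B27 cultures had a median of -0.07 with 8 genes higher and 9 lower with EPZ-6438, against 19.3% and 18% of all genes.

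Genes of the actin cytoskeleton and targets of YAP, the coactivator of the Hippo pathway, also rose. Of 26 members 24 were tested: 22 rose, none fell and 2 (LATS2 and TPM2) did not pass, against 26.6% and 26.5% of all genes, with a median log2 fold change of 1.49; without PXGL replicate 1, 23 rose and none fell. ANKRD1, an ankyrin-repeat YAP target, had no count in PXGL and 10.5, 13.9 and 15.7 CPM with EPZ-6438, at least 243-fold higher (adjusted p = 1.39e-07), against 2.44, 3.66 and 3.47 in N2B27. The matricellular protein gene THBS1 had 3 counts in PXGL and 16.8 ± 0.452 CPM with EPZ-6438 (ratio 306, counting interval 104 to 1486), at log2 8.07 in the fit and 11.12 without PXGL replicate 3. AMOTL2, an angiomotin that binds YAP, rose 21.7-fold and TAGLN, an actin-bundling protein of smooth muscle, rose 20.4-fold. Most members were below their N2B27 level: 15 of the 24 were lower with EPZ-6438 than in N2B27 and 5 were higher, against 18% and 19.3% of all genes.

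Serum response factor, which drives actin genes with coactivators of the MRTF family, binds the CArG box, searched here as CC, then 6 bases each A or T, then GG, a pattern that is its own reverse complement, so both strands are covered. RefSeq promoters (GRCh38.p14) were found for 20 of the 24 tested members, and the 250 bases before the start held a CArG box in 3 of them (15%), against 312 of all 27305 promoters (1.14%). Those 3 promoters are shown 5′ to 3′ on the gene's strand, with the boxes in capitals. ACTG2 (chr2:73892758-73893007, + strand) held 2 boxes, which 0.033% of all promoters had. CNN2 (chr19:1026358-1026607, + strand) and FLNA (chrX:154374635-154374884, - strand) held 1 each.
ACTG2: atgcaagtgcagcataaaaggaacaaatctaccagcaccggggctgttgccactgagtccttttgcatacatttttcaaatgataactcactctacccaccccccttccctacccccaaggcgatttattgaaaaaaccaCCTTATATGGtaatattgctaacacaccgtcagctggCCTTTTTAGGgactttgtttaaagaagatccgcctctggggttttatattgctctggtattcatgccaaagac
CNN2: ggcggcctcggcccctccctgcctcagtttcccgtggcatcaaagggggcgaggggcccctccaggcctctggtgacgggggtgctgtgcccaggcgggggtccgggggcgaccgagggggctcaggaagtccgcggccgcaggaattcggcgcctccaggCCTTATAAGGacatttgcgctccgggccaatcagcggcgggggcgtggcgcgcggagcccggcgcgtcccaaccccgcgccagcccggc
FLNA: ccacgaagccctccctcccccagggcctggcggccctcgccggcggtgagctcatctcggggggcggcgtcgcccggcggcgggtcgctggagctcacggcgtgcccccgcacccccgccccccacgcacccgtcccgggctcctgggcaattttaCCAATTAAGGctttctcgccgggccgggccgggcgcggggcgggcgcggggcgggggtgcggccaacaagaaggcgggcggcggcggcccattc
ACTG2, the gamma actin of smooth muscle, was at 2.52, 1.21 and 2.17 CPM in PXGL and 19.1, 21.2 and 22 with EPZ-6438, 10.5-fold higher (log2 3.40, SE 0.21, adjusted p = 1.23e-07). CNN2, a calponin that binds actin, rose 1.89-fold from 79.7, 97 and 96.3 to 174, 172 and 170.3 CPM (adjusted p = 3.7e-06), and FLNA, an actin crosslinker, rose 1.45-fold from 1294 ± 144 to 1875 ± 56.1 CPM (adjusted p = 0.000387). In each of the 3 genes the PXGL and EPZ-6438 ranges were apart, with N2B27 alone higher still at 35 ± 1.82, 243 ± 6.54 and 2668 ± 46.9 CPM. CNN2 and FLNA were named for their promoters after their values were seen. A match describes these letters only. The list was written to hold actin genes, and its share was set against all promoters, not those of tested genes. That share therefore does not test any link to the net change.

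Primed and formative pluripotency genes, which mark the postimplantation-like state, rose in 21 of 24 tested cases of 26, with TCF7L1 falling and OTX2 and DNMT3B not passing (median log2 fold change 2.97; 21 and 1 without PXGL replicate 1). Over all genes 26.6% rose and 26.5% fell. The receptor phosphatase PTPRZ1 had 1 count in PXGL and 40.5, 41 and 38.4 CPM with EPZ-6438 (ratio 2179.8, counting interval 391 to 86143), at log2 10.60 in the fit and 12.36 without PXGL replicate 1. The secreted WNT antagonist SFRP2 rose 183-fold from 0.202 ± 0.0842 to 38.2 ± 1.25 CPM, and the surface glycoprotein THY1 rose 68.9-fold to 43.5 ± 3.14 CPM. All of these sat below their N2B27 levels of 97.2 ± 5.17, 59.7 ± 0.296 and 118 ± 8.4 CPM. ZIC2, a zinc finger factor of the primed epiblast, was at 0.0548, 0.0548 and 0.278 CPM in PXGL, 6.68, 5.48 and 4.53 in N2B27 and 14.5, 12.9 and 11.7 with EPZ-6438, so it was highest with the inhibitor (log2 6.58 against PXGL, and 7.70 without PXGL replicate 3). The summed level of 9 primed markers was 82.6 to 85.3 CPM in PXGL, 982 to 991 in N2B27 and 514.5 to 520.1 with EPZ-6438. For 9 naive markers it was 4782 to 5291, 2807 to 2817 and 3286 to 3375 CPM. The EPZ-6438 libraries lay between PXGL and N2B27 on both sums, in which the most abundant markers weigh most. The median log2 change from PXGL did not follow that order: it was 4.92 with EPZ-6438 and 4.55 in N2B27 for the primed markers, and -0.49 and -0.36 for the naive ones. These medians can rest on different genes. Compared directly with N2B27, the primed markers had a median of -0.79 with EPZ-6438, with 2 higher and 6 lower. The naive markers had a median of 0.36, with 5 higher and 4 lower, against 19.3% and 18% of all genes.

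Other large gains were shared with N2B27 or went beyond it. NRK, a kinase gene, rose from 0.823, 0.11 and 0.444 to 226, 247 and 232 CPM, 504-fold (adjusted p = 9.74e-11), and was 208 ± 5.03 CPM in N2B27. KRT18 and KRT8, a keratin pair of simple epithelia, rose 7.38-fold and 3.21-fold to 1009.9 ± 13.6 and 1082 ± 2.18 CPM from 137 ± 23.8 and 337 ± 27.9 CPM, and were among the 8 genes that gained the most CPM. The others were HSPA8, MT-RNR2, ENO1, ACTB, LEFTY2 and HSP90AB1, and MT-RNR2 and HSP90AB1 gained by under 1.3-fold (1.28 and 1.26). HAPLN1, a hyaluronan link protein, went from 0, 0 and 0.222 CPM in PXGL and 6.41, 5.06 and 6.27 in N2B27 to 39.8, 37.9 and 31.9 with EPZ-6438. CCND2, which encodes cyclin D2, was at 2.85, 3.4 and 3.78 CPM in PXGL, 94.6, 91.9 and 90.1 in N2B27 and 195, 212 and 206 with EPZ-6438, 61-fold above PXGL (adjusted p = 1.94e-11) and 2.22-fold above N2B27 (adjusted p = 1.67e-30). The ranges of the 3 groups were apart for both genes. The 8 largest losses of CPM included TUBB4A, a beta tubulin (chromosome 19, 6494319 to 6502848), which fell 3.79-fold from 771 ± 50.2 to 204 ± 10.1 CPM, and ALPG. The rest were MT-CO1, MT-CO2, NLRP7, PRDX1, PGAM1 and EEF1G, and the call of MT-CO1 was lost without EPZ-6438 replicate 1 (adjusted p = 0.0934) or 3 (0.0652). The endothelin receptor gene EDNRB and the sulfatase gene SULF1, both among the 12 largest increases by the same rule, rose to 6.52 ± 0.248 and 5.36 ± 0.679 CPM from 0.0183 ± 0.0317 and 0.0183 ± 0.0316 CPM. Low PXGL counts make several of these sizes rest on 1 library, with log2 8.98 for NRK against 9.70 without PXGL replicate 1, 8.82 for HAPLN1 against 12.24 without replicate 3, 7.98 for EDNRB against 9.75 without replicate 1 and 7.70 for SULF1 against 9.47 without replicate 2.

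**Figure D3:**
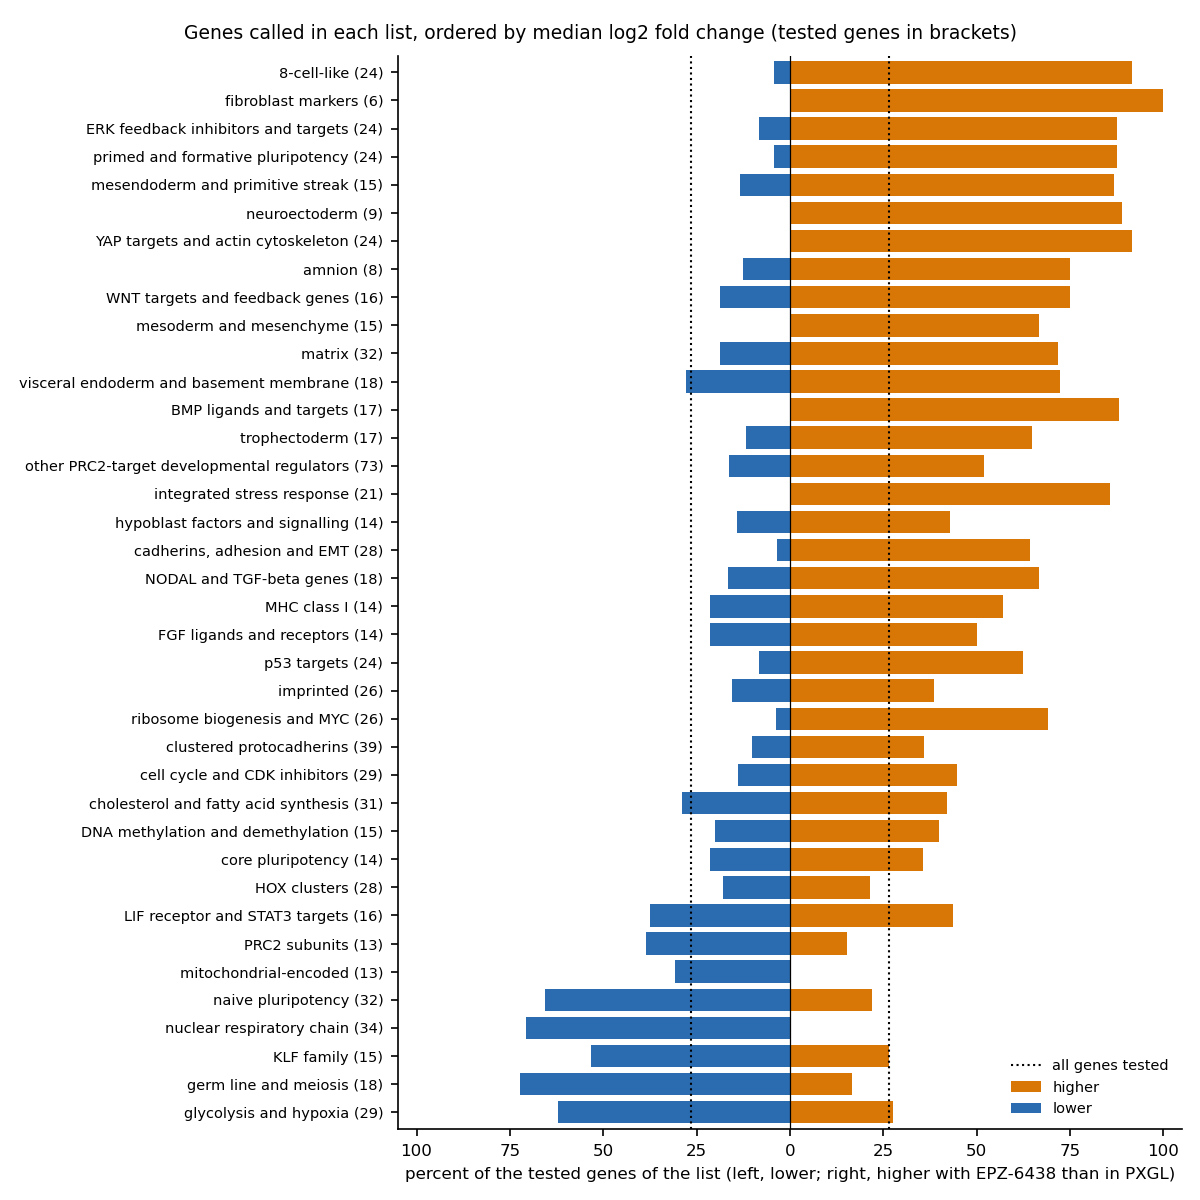
For each gene list, the percent of tested members called higher (right, orange) or lower (left, blue) with EPZ-6438 than in PXGL, ordered by median log2 fold change, with the number of tested genes in brackets. Dotted lines mark 26.6% higher and 26.5% lower, the shares over all 15179 genes. Over 85% of tested members were higher in the fibroblast, 8-cell-like, YAP and actin, neuroectoderm, BMP, primed, ERK, primitive streak and integrated stress response lists. The HOX list lies below both dotted lines.

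The tested HOX genes, which set position along the body axis, had a median level with EPZ-6438 close to that in PXGL. Of 39 HOX genes 28 were tested against PXGL: 6 were higher, 5 lower and 17 did not pass, against 26.6% and 26.5% of all genes, with a median log2 fold change of 0.01. With a library left out the low-count filter was rerun, so the genes tested could differ, and the median was 0.08 to 0.39. Without PXGL replicate 1, 32 HOX genes were tested, with 9 higher and 5 lower. The same 28 genes had a median of -3.41 in N2B27 against PXGL, with 25 lower and none higher (27.4% and 25.7% of all genes). With EPZ-6438 against N2B27, a comparison that called 37.3% of all genes, the median was 3.27, with 24 higher and none lower. Summed over the tested genes, the level was 121 to 135 CPM in PXGL, 36.3 to 43.7 in N2B27 and 135 to 150.4 with EPZ-6438. This total joins a lower HOXB sum with higher sums of the other clusters, given below. The other 11 HOX genes lay below the filter, with at most 45 counts over any group. Among them, named after their values were seen, HOXD11 had 0, 0 and 28 counts over PXGL, N2B27 and EPZ-6438, HOXD12 had 0, 4 and 41, HOXC4 had 1, 6 and 30, and HOXD3 had 19, 0 and 11. Strandedness was not stated, so reads from antisense or overlapping transcripts in these clusters may be included.

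The promoters of 2 HOX genes are shown because these genes had the smallest and the largest net change among the HOX genes with a mean of 5 CPM or more in PXGL or with EPZ-6438. They are 250 bases before the RefSeq start (GRCh38.p14), 5′ to 3′ on the gene's strand, with each CpG in capitals. HOXA9 (chr7:27165538-27165787, - strand) held 20 CpG and HOXD13 (chr2:176092471-176092720, + strand) held 21, against a median of 11 and an upper quartile of 23 over 27305 promoters.
HOXA9: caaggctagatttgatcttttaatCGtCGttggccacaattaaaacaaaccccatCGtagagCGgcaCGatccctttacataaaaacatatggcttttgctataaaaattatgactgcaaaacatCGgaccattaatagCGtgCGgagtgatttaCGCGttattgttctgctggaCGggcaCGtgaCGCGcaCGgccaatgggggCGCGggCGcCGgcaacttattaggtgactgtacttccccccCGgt
HOXD13: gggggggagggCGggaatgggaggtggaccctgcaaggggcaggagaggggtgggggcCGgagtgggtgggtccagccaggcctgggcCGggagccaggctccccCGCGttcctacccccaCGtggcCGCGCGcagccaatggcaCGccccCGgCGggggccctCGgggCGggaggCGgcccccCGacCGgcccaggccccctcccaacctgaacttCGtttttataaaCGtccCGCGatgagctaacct
HOXA9 (chromosome 7, 27162435 to 27175180 in GENCODE 29) was at 5.76, 5.15 and 4.28 CPM in PXGL, 0.696, 0.281 and 0.333 in N2B27 and 5.84, 4.99 and 4.41 with EPZ-6438. PXGL and EPZ-6438 overlapped (log2 0.00, 95% interval -0.42 to 0.43, adjusted p = 0.988), and N2B27 lay below both. HOXD13 (chromosome 2, 176092891 to 176095938) was at 5.48, 3.73 and 4.55 CPM in PXGL, 0.209, 0.352 and 0.667 in N2B27 and 20.9, 24.6 and 23.4 with EPZ-6438, 5.-fold above PXGL (log2 2.32, SE 0.16, adjusted p = 2.65e-07).

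Within the HOX clusters the net change differed between genes. HOXC13, at the posterior end of its cluster, was at 1.59, 1.75 and 1.72 CPM in PXGL and 5.77, 4.62 and 5.76 with EPZ-6438, 3.18-fold higher (adjusted p = 6.07e-05), and the groups did not overlap. HOXB3 fell 2.4-fold, from 14, 11.6 and 13.9 to 5.7, 6.08 and 4.68 CPM (adjusted p = 4.12e-05), and HOXB2 fell 2.06-fold to 16.3 ± 2.97 CPM, with 15.3 ± 1.38 in N2B27 (log2 difference of the N2B27 cultures 0.09, 95% interval -0.16 to 0.34, adjusted p = 0.611). By cluster the counts were small and were not compared with each other, and over all genes 26.6% were higher and 26.5% lower. The HOXA cluster on chromosome 7 had 9 tested genes, 2 higher and none lower than in PXGL. The HOXB cluster on chromosome 17 had 8, with 1 higher and 3 lower. The HOXC cluster on chromosome 12 had 6, with 2 higher and none lower, and the HOXD cluster on chromosome 2 had 5, with 1 higher and 2 lower. Summed CPM went from 35.8 to 41.1 in PXGL to 48.6 to 60.7 with EPZ-6438 for HOXA. For HOXB it went from 63.1 to 69.9 to 38 to 47.2. The HOXC sum went from 9.61 to 11.2 to 16.2 to 18.4, and the HOXD sum from 11.5 to 14.5 to 24.1 to 29.2. The most abundant genes weigh most in these sums.

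**Figure D4:**
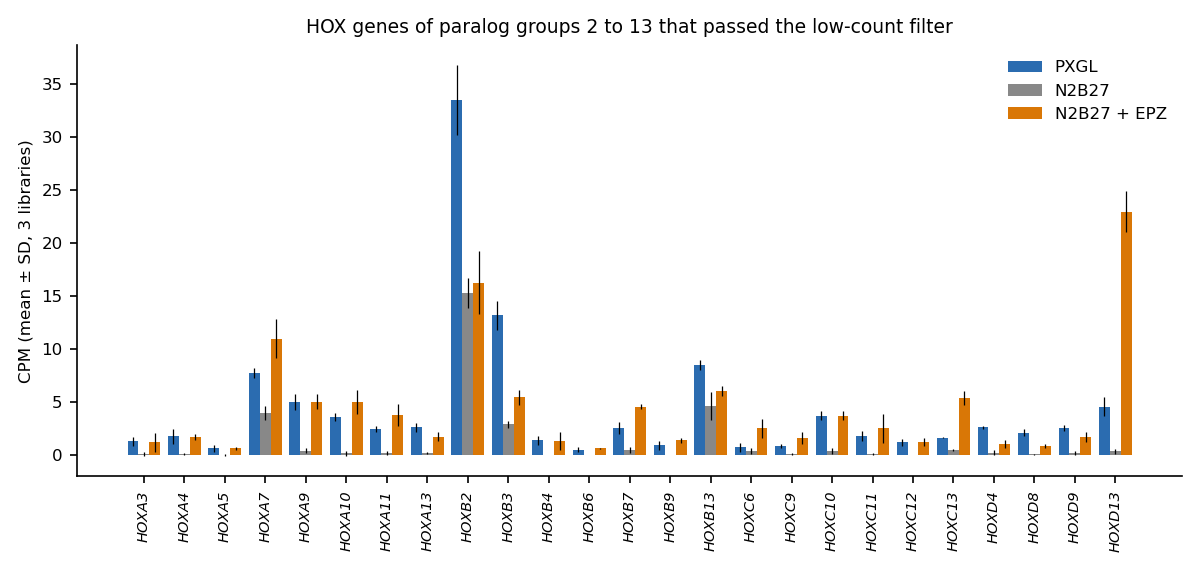
Mean CPM with SD (n = 3) of 25 of the 28 HOX genes that passed the low-count filter, those of paralog groups 2 to 13, in PXGL (blue), N2B27 (grey) and N2B27 with EPZ-6438 (orange). Most orange bars are near the blue ones and above the grey ones; HOXC13 and HOXD13 exceed PXGL, and HOXB2 and HOXB3 stay below it.

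Other genes with N2B27 levels far from PXGL did not pass against PXGL with EPZ-6438. TBX3, a T-box repressor expressed in naive cells and a PRC2 target (chromosome 12, 114670254 to 114684164), was at 20.5, 26.9 and 24.8 CPM in PXGL, 1.25, 1.2 and 1.2 in N2B27 and 22.9, 23.3 and 21.6 with EPZ-6438. Its net log2 change was -0.09 (95% interval -0.35 to 0.16, adjusted p = 0.538), against -4.30 for N2B27 alone, and the EPZ-6438 range lay within that of PXGL. The pair of genes that follow was chosen after their values were seen. FOXC1, a forkhead factor of mesenchyme, was at 10.1 ± 1.33, 1.49 ± 0.253 and 12.4 ± 2.15 CPM in PXGL, N2B27 and EPZ-6438. The TALE homeobox gene MEIS2 was at 10.4 ± 1.12, 0.734 ± 0.221 and 8.54 ± 1.84 CPM in the same order. Neither passed against PXGL (adjusted p = 0.153 and 0.179), though FOXC1 passed as higher without PXGL replicate 1 (adjusted p = 0.0408) and MEIS2 as lower without EPZ-6438 replicate 3 (0.045).

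Among genes of DNA methylation, the de novo methyltransferase gene DNMT3B was at 287, 339 and 347 CPM in PXGL, 922, 909.9 and 898 in N2B27 and 311, 339 and 350.4 with EPZ-6438. Its PXGL and EPZ-6438 ranges overlapped (log2 0.04, 95% interval -0.15 to 0.23, adjusted p = 0.724). TET2, a dioxygenase that oxidises methylcytosine, was at 18.3, 25.2 and 26.8 CPM in PXGL, 3.48, 3.02 and 3.27 in N2B27 and 19.1, 18.5 and 17.3 with EPZ-6438 (net log2 -0.36, adjusted p = 0.0502). It passed as lower without PXGL replicate 1 (log2 -0.51, adjusted p = 9.82e-05), the PXGL library nearest to EPZ-6438. DNMT3B and TET2 were both chosen after their values were seen. Of 15 tested genes of DNA methylation and demethylation 6 rose, 3 fell and 6 did not pass, against 26.6% and 26.5% of all genes. Without PXGL replicate 1, 6 rose and 5 fell, where 4822 of all 15522 genes rose and 4639 fell. The dioxygenase gene TET3 rose 2.35-fold to 38 ± 2.09 CPM and UHRF1, which recruits the maintenance methyltransferase, fell 1.55-fold to 77.1 ± 2.73 CPM. Some genes were called with ranges apart in both other comparisons. Among those, the net log2 change was smallest relative to the larger of the other 2 changes for HOXA9, RPS19, NHS, PALS2, SH3RF1, PIR, PTK2B and SLC5A6. PTK2B, a focal adhesion kinase, was at 5.27, 8.38 and 6.72 CPM in PXGL, 2.23, 2.6 and 1.27 in N2B27 and 7.11, 6.39 and 6.85 with EPZ-6438. RPS19, a ribosomal protein gene, was at 924, 713 and 655 CPM in PXGL and 827, 757 and 708 with EPZ-6438, and its net log2 change was 0.16 without PXGL replicate 1 and -0.10 without PXGL replicate 3.

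Developmental regulators known as PRC2 targets outside the HOX clusters rose more often than they fell. Of 123 members 73 were tested: 38 rose, 12 fell and 23 did not pass, against 26.6% and 26.5% of all genes. Their median log2 fold change was 1.09. Without PXGL replicate 1, 79 members were tested and the counts were 40 and 12. In N2B27 against PXGL 14 of the 73 were higher and 30 lower (25.7% and 27.4% of all genes), with a median of -0.42. The summed level of the tested members was 357 to 370 CPM in PXGL, 293 to 319 in N2B27 and 692 to 718 with EPZ-6438. SOX9, an HMG-box factor, was at 1.1, 2.3 and 1.28 CPM in PXGL and 24.9, 19.6 and 24 with EPZ-6438, 14.6-fold higher, against 5.03 ± 0.36 in N2B27. The homeobox gene GBX2 rose 17.7-fold to 11.5 ± 0.936 CPM, with 8.74 ± 0.647 in N2B27. The LIM-homeobox gene ISL1 was 1.59-fold lower than in PXGL, at 3.98 ± 0.313 CPM against 6.33 ± 0.513, and 1.22 ± 0.335 in N2B27. In bulk RNA a change in the share of cells that express a gene and a change per cell cannot be told apart.

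Transcripts of PRC2 subunits changed in both directions. EZH2, the target of the inhibitor, was at 79.1, 76.6 and 79.2 CPM in PXGL and 79, 86.2 and 82.2 with EPZ-6438, with overlapping ranges (log2 0.07, 95% interval -0.08 to 0.23, adjusted p = 0.408). The scaffold subunit EED was at 21.8 ± 1.26 and 23.9 ± 1.25 CPM and did not pass (adjusted p = 0.285), and SUZ12, which anchors the complex, fell 1.32-fold from 124 ± 4.97 to 94.3 ± 3.08 CPM (adjusted p = 0.000585). JARID2, an accessory subunit that guides PRC2 to chromatin, rose from 61.3, 72.4 and 72.8 to 194, 198 and 200.5 CPM, 2.87-fold (adjusted p = 4.01e-08), below its 298 ± 12 in N2B27. PHF19, another accessory subunit, rose 1.98-fold to 35.7 ± 0.863 CPM. Of 13 tested subunits 2 rose, 5 fell and 6 did not pass, against 26.6% and 26.5% of all genes.

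Hypoblast genes, the subject of the study's question, changed in both directions against PXGL. Of 20 hypoblast factors and signalling genes 14 were tested: 6 rose, 2 fell and 6 did not pass, against 26.6% and 26.5% of all genes (7 and 2 without PXGL replicate 1). GATA6, the earliest hypoblast factor (chromosome 18, 22169443 to 22202528), was at 0.329, 0.274 and 0.333 CPM in PXGL, 0.905, 0.422 and 0.867 in N2B27 and 9.79, 7.54 and 6.58 with EPZ-6438. It was 25-fold above PXGL (log2 4.64, SE 0.29, adjusted p = 1.66e-07), and the EPZ-6438 libraries lay above all others. GATA4, which follows GATA6, was at 6.86, 7.56 and 8.38 CPM in PXGL and 22, 23 and 23.1 with EPZ-6438, 2.99-fold higher (adjusted p = 9.05e-07). The nuclear receptor HNF4A, chosen after its values were seen, was at 25, 29.7 and 33.5 CPM in PXGL and 21.9, 20.7 and 20.4 with EPZ-6438, 1.4-fold lower than at the start (adjusted p = 0.00465), with 8.3 ± 0.319 in N2B27. The homeobox gene HHEX fell 5.18-fold from 10.1 ± 1.84 to 1.94 ± 0.259 CPM.

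Several hypoblast markers were low in every library. PDGFRA, a receptor used to sort hypoblast cells, was at 5.81, 4.88 and 4.94 CPM in PXGL and 6.24, 6.32 and 4.14 with EPZ-6438 (log2 0.10, 95% interval -0.35 to 0.54, adjusted p = 0.712). SOX17, an endoderm factor, lay below the filter, with 4, 0 and 2 counts in the PXGL libraries and 8, 8 and 16 with EPZ-6438. FOXA2, a forkhead factor of endoderm, had 22 counts over PXGL and 40 with EPZ-6438, and the apolipoprotein gene APOA1 had none in any library. Among genes of visceral endoderm and basement membrane, 18 of 23 were tested, and 13 rose and 5 fell, where 26.6% and 26.5% of all genes did. The 5 members below the filter were APOA1, TTR, AFP, APOA2 and CUBN, and TTR too had no count in any library. Over PXGL, N2B27 and EPZ-6438, AFP had 0, 1 and 1 counts, APOA2 had 0, 0 and 2, and CUBN had 7, 0 and 6. The endocytic receptor gene LRP2 rose 10.01-fold from 0.329, 1.37 and 1.17 to 8.92, 9.37 and 10.6 CPM. Fibronectin, encoded by FN1, rose 4.46-fold to 216 ± 5.83 CPM, and the basement membrane collagen genes COL4A1 and COL4A2 rose 5.32-fold and 4.42-fold to 128 ± 2.9 and 117 ± 2.45 CPM. AMN, which works with LRP2's partner cubilin in visceral endoderm, was among the 5 that fell, with LAMA1, VIL1, APOE and DAB2, all named after their values were seen. The 4 tested markers of the hypoblast summed to 38 to 47.1 CPM in PXGL, 28.5 to 28.9 in N2B27 and 54.2 to 60 with EPZ-6438.

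Primitive streak genes rose, and most were also above N2B27. TBXT, which encodes brachyury (chromosome 6, 166157656 to 166168700), was at 0.0548, 0.164 and 0 CPM in PXGL, 7.1, 3.8 and 6.54 in N2B27 and 62.9, 65.7 and 68.4 with EPZ-6438, 812-fold above PXGL (log2 9.67, SE 0.24, adjusted p = 1.14e-10) and 11.3-fold above N2B27 (adjusted p = 5.44e-26). The 3 groups were apart. CER1, a secreted antagonist of NODAL, BMP and WNT, had 3 counts in PXGL and 26.2, 24.3 and 22.6 CPM with EPZ-6438 (ratio 442, counting interval 151 to 2149). The fitted changes rest on those few PXGL counts: without PXGL replicate 2, log2 was 10.86 for TBXT, and 11.65 for CER1 against 8.61 with all. The WNT target SP5 rose 18-fold from 1.28 ± 0.15 to 23.3 ± 1.14 CPM, and the chemokine receptor gene CXCR4 rose 8.71-fold to 7.4 ± 0.67 CPM, with 7.61 ± 1.48 in N2B27. Of 15 tested members of 21, 13 rose and TBX6 and HHEX fell, against 26.6% and 26.5% of all genes (median log2 fold change 2.86, and 2.55 without PXGL replicate 1). The summed level of 3 tested mesendoderm markers was 9.11 to 11 CPM in PXGL, 17.9 to 21 in N2B27 and 129 to 138 with EPZ-6438.

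Lists of other lineages also had more genes rising than the 26.6% of all genes, and fewer falling than the 26.5%, mostly from low levels. In the trophectoderm list 11 of 17 tested members of 28 rose and 2 fell, and 11 lay below the filter. ABCG2, an efflux transporter gene, rose 21.8-fold to 21.4 ± 2.32 CPM, below its 29.99 ± 0.847 in N2B27, and the basic helix-loop-helix factor HAND1 rose 10.03-fold from 1.15, 2.52 and 1.94 to 21.5, 16 and 19 CPM. The trophoblast hormone gene CGA had no count in any library, nor had VGLL1 and ELF5 of the same list, named after their values were seen. In the neuroectoderm list 8 of 9 tested members of 23 rose and none fell, with SOX3 at 6.7 ± 0.6995 CPM from 0.367 ± 0.0619. The neural genes PAX6 and SOX1 stayed below the filter, with 26 and 13 counts over the EPZ-6438 libraries. In the amnion list 6 of 8 tested members of 13 rose and 1 fell, and VTCN1, below the filter, had no count in any library. In the mesoderm list 10 of 15 tested members of 24 rose and none fell. ANXA1, an annexin, was at 55.1 ± 2.39 CPM from 0.385 ± 0.379 (log2 7.13, and 8.31 without PXGL replicate 1). All 6 tested fibroblast markers rose, from a summed 22.4 to 24.9 CPM in PXGL to 189 to 199 with EPZ-6438 and 271 to 303 in N2B27. The call of COL1A1 was lost without EPZ-6438 replicate 1 (adjusted p = 0.054) or 3 (0.0717). Among fibroblast-defining genes DCN had no count with EPZ-6438, LUM had 2 and COL3A1 had 5. The part of other cell types in these lists was not tested.

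Of 24 tested markers of 8-cell-like cells, a rare state of naive cultures named after the stage of embryonic genome activation, 22 rose, KHDC1L fell and TPRXL did not pass, against 26.6% and 26.5% of all genes, and the median log2 fold change of 3.98 was the highest of the 38 lists. The counts were the same without PXGL replicate 1. Of the list's 25 members, only DUX4 lay below the filter, with 3, 4 and 2 counts over PXGL, N2B27 and EPZ-6438. SLC34A2, a phosphate transporter gene, was at 2.14, 2.57 and 2.5 CPM in PXGL, 12, 9.14 and 10.4 in N2B27 and 43.5, 46.2 and 43 with EPZ-6438, 18.3-fold above PXGL (adjusted p = 4.19e-10). ZSCAN4, a telomere-associated factor, was at 0.987, 1.53 and 1.22 CPM in PXGL, 3.48, 3.94 and 3.67 in N2B27 and 18, 18.4 and 16.4 with EPZ-6438. CCNA1, a germ cell cyclin chosen like ZSCAN4 after its values were seen, was at 40.9, 33 and 35.8 CPM, 65, 60.8 and 64.4 and 191, 198 and 213 CPM in the same groups. For all 3 genes the groups did not overlap and EPZ-6438 was highest. The multicopy genes PRAMEF1, PRAMEF12 and RFPL4B rose 31-fold, 17.6-fold and 17.1-fold to 7.61 ± 0.603, 6.92 ± 1.92 and 6.71 ± 0.475 CPM, and RFPL4A went from 3 counts in PXGL to 6.6 ± 0.855 CPM (ratio 119, counting interval 40.5 to 582; log2 6.72 in the fit and 7.55 without PXGL replicate 1). Near-identical copies may share the reads of these genes, so their separate values are uncertain. The list's summed level moved less, from 590.1 to 800 CPM in PXGL to 919 to 954 with EPZ-6438 and 468 to 486 in N2B27.

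BMP ligands and targets rose in 15 of 17 tested cases and none fell, against 26.6% and 26.5% of all genes. Without PXGL replicate 1, 14 rose and none fell. The call of BMP4 was lost without PXGL replicate 2 or 3, or without EPZ-6438 replicate 1 or 3 (adjusted p = 0.07 to 0.111). The inhibitor of differentiation genes ID3, ID2 and ID4 rose 39.7-fold, 4.69-fold and 5.38-fold to 13.4 ± 0.19, 7.35 ± 1.21 and 6.84 ± 0.895 CPM, with ID3 at 77.5-fold without PXGL replicate 1. The ligand BMP7 rose 4.01-fold from 7.79, 10.1 and 10.8 to 39.1, 39.5 and 36.6 CPM, and BMP2, chosen after its values were seen, was at 5.58 ± 1.37 CPM in PXGL, 0.251 ± 0.0993 in N2B27 and 4.08 ± 0.431 with EPZ-6438 (net adjusted p = 0.101, and 0.0442, lower, without PXGL replicate 2). Of 18 tested NODAL and TGF-beta genes 12 rose and 3 fell (14 and 3 without PXGL replicate 1). The NODAL inhibitors LEFTY2 and LEFTY1 rose 5.59-fold and 4.5-fold, LEFTY2 from 168, 146 and 139.8 to 862, 844 and 830.2 CPM and LEFTY1 from 32 ± 6.88 to 144 ± 4.21 CPM. Both LEFTY genes were also above their N2B27 levels of 379 ± 9.98 and 79.7 ± 3.93 CPM.

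WNT targets and feedback genes rose in 12 of 16 tested cases and 3 fell (13 and 3 without PXGL replicate 1), beside 26.6% and 26.5% of all genes. The WNT receptor gene FZD7 rose 10.3-fold to 15.5 ± 2.14 CPM. The homeobox gene CDX1 and the receptor-removing ligase RNF43 were at 3.56 ± 0.248 and 6.51 ± 0.29 CPM in PXGL, 2.95 ± 0.768 and 8.22 ± 0.576 in N2B27, and 13.1 ± 0.935 and 19.2 ± 0.57 with EPZ-6438. Neither gene passed between N2B27 and PXGL (adjusted p = 0.372 and 0.0774), and both were above N2B27 with EPZ-6438 (adjusted p = 2.94e-15 and 6.58e-12). FGF ligands and receptors were mixed, with 7 of 14 tested genes higher and 3 lower (7 and 5 without PXGL replicate 1). FGF2 rose 8.7-fold from 22.5 ± 0.879 to 196 ± 3.51 CPM while FGF4 fell, and the receptor FGFR1 rose 2.78-fold to 117 ± 1.83 CPM. Of 16 genes of the LIF receptor and STAT3 pathway 7 rose and 6 fell. SOCS3, which feeds back on STAT3, rose 6.92-fold from 1.6 ± 0.426 to 11.1 ± 0.611 CPM, with 10.9 ± 1.69 in N2B27.

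Nuclear genes of the respiratory chain fell on balance, by small amounts. None of 34 tested nuclear genes of the respiratory chain rose and 24 fell, against 26.6% and 26.5% of all genes, with a median log2 fold change of -0.42 (2 rose and 24 fell without PXGL replicate 1). NDUFV1, a catalytic subunit of complex I, was at 333, 266 and 259 CPM in PXGL and 151, 154 and 153 with EPZ-6438, 1.87-fold lower (adjusted p = 1.02e-05). Of 13 mitochondrial-encoded genes 4 fell, a share (30.8%) near that of all genes, and none rose; MT-ND6 fell 1.41-fold (5 fell and 1 rose without PXGL replicate 1). Of 29 tested genes of glycolysis and hypoxia 18 fell and 8 rose. SLC16A3, the lactate exporter MCT4, fell 5.91-fold from 109, 119.9 and 119 to 20.9, 18.1 and 19.9 CPM, and ALDOC, the brain aldolase, fell 2.45-fold to 30.4 ± 1.53 CPM. In contrast the phosphofructokinase gene PFKP and the glucose transporter gene SLC2A3 rose 2.75-fold and 2.06-fold to 265 ± 6.82 and 841 ± 21.1 CPM. PXGL replicate 1 was the highest PXGL library for NDUFV1, and without that replicate the list's median was -0.33.

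Genes of the stress response and of ribosome production rose on balance. Of 21 genes of the integrated stress response 18 rose and none fell (20 and none without PXGL replicate 1), where 26.6% and 26.5% of all genes did, with ATF3, a stress-induced factor, at 10.2, 10.3 and 10.9 CPM in PXGL and 48.2, 44.2 and 41.8 with EPZ-6438, 4.27-fold higher. ASNS, asparagine synthetase, rose 3.52-fold and PSAT1, of serine synthesis, rose 3.73-fold, to 178 ± 7.36 and 385 ± 1.99 CPM. Of 26 genes of ribosome biogenesis and MYC 18 rose and 1 fell. Without PXGL replicate 1 the counts were 23 and 1, where 4822 of all 15522 genes rose and 4639 fell. MYC itself was at 3.46, 3.18 and 1.55 CPM in PXGL and 44.3, 41.7 and 40.4 with EPZ-6438, 15.4-fold higher (adjusted p = 2.23e-08), with 50.2 ± 3.12 in N2B27. Cholesterol and fatty acid synthesis genes rose in 13 of 31 cases and fell in 9, the latter (29%) near the share of all genes. HMGCS1, an early enzyme of the pathway, rose 1.68-fold to 501 ± 3.55 CPM, with 684 ± 19.7 in N2B27. Between the N2B27 cultures 26 of the 31 genes were lower with EPZ-6438 and none was higher, against 18% and 19.3% of all genes.

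The direction of the net change varied between chromosomes. On chromosome 19, 497 of 1112 tested genes were lower (44.7%) and 125 were higher (11.2%), with a median log2 fold change of -0.27. By share of lower genes chromosomes 16 and 22 followed, with 39.7% and 37% lower. At the other end, 39.5% of genes on chromosome 18 and 38.9% on chromosome 5 were higher, with 17.1% and 17.6% lower. Transcript GC content ran the same way: in the 20% of genes with the lowest GC 33.5% were higher and 18.4% lower, and in the 20% with the highest 14.4% were higher and 45.9% lower. The median log2 fold changes of these lowest and highest groups were 0.11 and -0.34, and 0.12 and -0.32 without PXGL replicate 1. Within the highest GC group 57.7% of 549 genes on chromosome 19 were lower, against 43.1% of 2349 genes elsewhere. In GC groups 1 to 4, from the lowest up, the lower shares on chromosome 19 were 25.2%, 20.5%, 21.3% and 44.8%. Elsewhere they were 18.2%, 19.6%, 20.8% and 28%, so groups 2 and 3 differed little. Zinc finger genes on chromosome 19, named ZNF, ZFP, ZSCAN, ZIM or ZKSCAN, had 40 higher and 60 lower of 262 (median -0.09), and the other 850 genes of that chromosome had 85 higher and 437 lower (median -0.38). Between the N2B27 cultures the medians were 0.13 for these zinc finger genes and -0.07 for the other genes of chromosome 19. These are descriptions over genes that share libraries, and the part of library preparation in the GC trend was not tested.

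**Figure D5:**
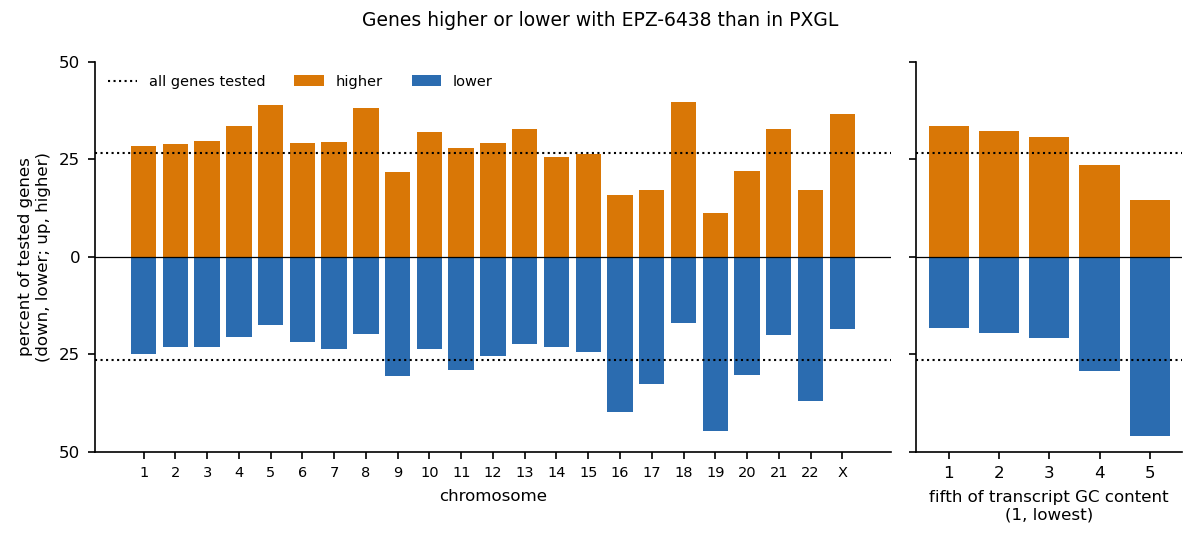
Percent of tested genes called higher (up, orange) or lower (down, blue) with EPZ-6438 than in PXGL, by chromosome on the left and by transcript GC content, in 5 groups of equal size, on the right. Dotted lines mark the shares over all 15179 genes, 26.6% and 26.5%. Chromosome 19 has the deepest blue bar at 44.7%, and the blue bars deepen from 18.4% to 45.9% with GC content.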

How the data were processed

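RNA was sequenced from 9 H1 libraries in 3 groups: the PXGL start, N2B27, and N2B27 to which 5 µM EPZ-6438 was added. The authors deposited 1 table of estimated counts (expected count values) per gene symbol, made with Trim Galore, STAR 2.7.6a and DESeq2 against hg38, per the submitters' processing notes. No source used here names the counting program, its strand setting or its annotation, and the labels name both poly(A) and ribosomal RNA-depleted preparation. Library totals were 14482105 to 18358530.

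Counts were rounded. Genes were kept with filterByExpr and scaled by TMM over all 9 libraries (15179 of 22640 symbols with a count), then fitted with edgeR 4.0.16 (R 4.3.3) by quasi-likelihood on the 6 libraries of each comparison, with Benjamini-Hochberg adjustment. Counts for the net comparison (14966 genes) were simulated with 50 genes changed at each fold, independent draws and the same dispersion per gene in both groups. On these the test recovered 62% of 1.5-fold, 78% of 2-fold and 96% of 4-fold changes, with 9 false calls. In the data 53.1% of genes were called and PXGL replicate 1 stood apart, so these figures do not measure how reliable the 8053 calls are. DESeq2 1.42.0 size factors and test, other filters and scalings, a fit of all 9 libraries and leaving out each library were alternatives. Positions came from GENCODE 29 by symbol (36547 of 40332). Promoters were compared only by list, since under 80% of called genes had one.

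Members and gene lists were chosen with earlier results of these data known. Named genes were a short set of fixed genes, the 12 largest increases and decreases with non-overlapping ranges and at least 5 CPM, without non-coding names and pseudogenes, the 8 largest gains and losses in CPM, up to 5 called members a list with at least 5 CPM, and the 8 genes nearest 0 that were called in both other comparisons. Others are said to be chosen after their values were seen. Same-numbered libraries of PXGL and EPZ-6438 did not deviate together (r of 0.0243, 0.0369 and -0.0102 over genes), so replicate numbers were not used as pairs. Some genes are not reported here.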

Additional observations from a re-analysis of the deposited data

How the results depend on the processing

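The net count of 8053 genes stayed within 1.5 times under each alternative run except a test that requires a change of over 1.5-fold, which called 2824. Leaving out 1 library gave 6767 to 9461 net calls, 2617 to 2868 beyond 2-fold, 4948 to 5118 between the N2B27 cultures (5660 with all) and 6779 to 9548 for N2B27 against PXGL (8052 with all). Fitting all 9 libraries together gave 3752 calls between the N2B27 cultures. With the replicate number as a block, which the data did not show to pair libraries, the counts were 8013, 2661, 5743 and 7905 in the same order. Of 220 named genes 201 were called. The 1.5-fold test ended 49 of these calls, leaving out a library changed 20 calls over 13 genes (RPS19, POU5F1, NANOG, MT-CO1, BMP4, COL1A1, TDRD1, EPOP, TET2, FOXC1, BMP2, SPRY1 and MEIS2), and the other settings changed 3, all of TET2, which passed as lower with total counts only (adjusted p = 0.0491), with no low-count filter (0.0275) and with all 9 libraries in 1 fit (0.0307). RPS19, with a net log2 change near 0, was at -0.10 without PXGL replicate 3 and 0.16 without PXGL replicate 1 (adjusted p = 0.0224). Of 570 list medians 35 moved by more than the spread between libraries, 24 of them with a library left out and 9 with no low-count filter, and 0 reversed. Depth limits genes with few counts, such as SOX17 and FOXA2, which were not tested.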

Other observations

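Adhesion and matrix genes rose with EPZ-6438 over PXGL. Of 28 tested genes of cadherins, adhesion and epithelial-mesenchymal transition 18 rose, 9 did not pass and only CDH1 fell, against 26.6% and 26.5% of all genes, and without PXGL replicate 1 there were 17 higher and 3 lower. CDH1, which encodes E-cadherin, was named after its values were seen and was at 375, 456 and 462 CPM in PXGL and 301, 305 and 305 with EPZ-6438, 1.42-fold lower (adjusted p = 0.000428). VIM, the mesenchymal intermediate filament gene, rose 13.4-fold from 4.77, 3.62 and 3.94 to 57.3, 54.8 and 53.2 CPM, and the cadherin genes CDH6 and CDH11 rose 33.2-fold and 9.2-fold to 9.36 ± 1.12 and 8.34 ± 0.866 CPM. Of 32 tested matrix genes 23 rose and 6 fell. TNC, which encodes tenascin C, had no count in PXGL and 7.11, 8.15 and 5.76 CPM with EPZ-6438, at least 128-fold higher, and the laminin gene LAMA3 and the osteopontin gene SPP1 rose 9.71-fold and 7.49-fold. The clustered protocadherin genes, which share exons and so are uncertain one by one, had 14 higher and 4 lower of 39. Without PXGL replicate 1 there were 13 higher and 10 lower of 42 tested. PCDHAC2 rose 65.5-fold to 18.5 ± 2.7 CPM (295-fold without PXGL replicate 1), with 17 ± 2.98 in N2B27.

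Over all genes 26.6% rose and 26.5% fell, the shares beside which the counts that follow stand. Of 24 p53 targets 15 rose and 2 fell. GDF15, a stress-induced ligand, was at 20.6, 16 and 20.4 CPM in PXGL, 18.6, 15 and 18 in N2B27 and 61.2, 58.6 and 58.2 with EPZ-6438, 3.12-fold above PXGL (adjusted p = 2.02e-07). CDKN1A, which encodes the cell cycle inhibitor p21, was at 33.3, 30.2 and 28.9 CPM, 25.6, 29.5 and 29.2 and 87.4, 86 and 91.4 in the same groups. Both genes were higher with EPZ-6438 than in every other library, and neither passed between N2B27 and PXGL (adjusted p = 0.394 and 0.293). Of 29 cell cycle genes 13 rose and 4 fell. Without PXGL replicate 1 the counts were 17 and 7 of 30, where 4822 of all 15522 genes rose and 4639 fell. The cyclin gene CCND1 rose 2.79-fold to 335 ± 10.3 CPM while CCND3 fell 1.68-fold to 39.8 ± 1.17 CPM. Germ line and meiosis genes fell in 13 of 18 tested cases and rose in 3, and the synaptonemal complex gene SYCP3 fell 2.17-fold from 54.9 ± 2.74 to 25.3 ± 2.23 CPM. In the KLF family 8 of 15 tested genes fell and 4 rose, with KLF11 1.82-fold lower at 36.9 ± 2.3 CPM. Of 26 imprinted genes 10 rose and 4 fell, with GRB10 2.9-fold higher and SLC22A18 5.81-fold lower. Of 14 MHC class I genes 8 rose and 3 fell. The peptide-trimming gene ERAP1 rose 4.78-fold to 12.9 ± 0.508 CPM and HLA-F fell 2.28-fold to 5.56 ± 1.22 CPM, and reads of HLA genes may be split between similar copies.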
